A study of Mus musculus with 12 samples.

Results

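Cathepsins and legumain are the main proteases of the lysosome, and 9 of their genes (Ctsb, Ctsc, Ctsd, Ctsh, Ctsl, Ctss, Ctsz, Ctsw and Lgmn) of the 31053 genes in the matrix were followed across the immune cells of MC38 tumors. The genes were taken by symbol, and all 9 were found. The data are droplet-based scRNA-Seq of CD45+ cells, enriched with microbeads from subcutaneous tumors of C57BL/6 mice on day 17 after implantation. MC38 is a mouse colon carcinoma line, and CD45 is a surface protein of leukocytes. Every mouse carried an MC38 tumor and was dosed daily under the skin, either with vehicle or with 100 mg/kg of the EZH2 inhibitor PF-06821497 (EZH2i), for 7 or for 16 days before the tumor was taken. The labels list 4 groups of 3 mice (vehicle for 7 days, EZH2i for 7 days, vehicle for 16 days and EZH2i for 16 days), and no source used here gives the age of the mice. The matrix holds 12 numbered libraries, and neither the labels nor the files name the mouse or group behind a library number. Groups are taken from labels alone here, so EZH2i was not compared with vehicle, libraries of all groups stand side by side, and no p-value is given.

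Cathepsins B, L and S are cysteine endopeptidases, cathepsin D is an aspartic endopeptidase, and legumain cuts after asparagine and also processes other cathepsins into their mature forms. Cathepsins C, H and Z trim peptides from their ends, and cathepsin C in addition activates the serine proteases of cytotoxic and neutrophil granules. Macrophages use these enzymes to degrade what they engulf, antigen-presenting cells use them, cathepsin S above all, to remove the invariant chain from MHC class II, and cathepsin W is known from cytotoxic T and NK cells.

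Levels are unique molecular identifiers (UMIs) of a gene per 1000000 UMIs of a class (CPM), summed over the cells of that class in a library. They count transcript ends and are not scaled to gene length, so a level is compared between cells and not between genes. Cells were put into classes by UMIs of lineage genes that exclude the 9 proteases, and a class was used in a library where it had at least 30 cells. Of 128912 cells kept, 109236 (84.7%) fell into 6 classes: 94371 macrophages (C1qa, C1qb and C1qc with a phagocyte receptor), 2877 monocytes (Ly6c2), 1945 dendritic cells (Flt3, Zbtb46, Xcr1, Clec9a, Cd209a or Ccr7), 2456 neutrophils (Csf3r, Cxcr2 or Retnlg), 335 B cells (B cell receptor genes such as Cd79a and Cd79b, or Ms4a1) and 7252 T cells (Cd3 chains and T cell receptor constant genes). Macrophages, monocytes, dendritic cells and T cells were usable in all 12 libraries, neutrophils in 11 and B cells in 3 (libraries 5, 6 and 10). A further 238 NK cells, usable in 2 libraries, were kept for Ctsw. Of 18 markers that the gates did not use, 17 had their highest median in the class they mark. The exception was Fcgr1, listed for macrophages, whose median was 399 CPM there and 635 CPM in monocytes. The tumor keratins Krt8 and Krt18 had medians of 0 to 1.98 CPM in the 6 classes. Epcam, also checked as a tumor marker, had medians of 45.5 CPM in dendritic cells (5.17 to 155), 18.9 CPM in T cells and 17.9 CPM in B cells. In macrophages, monocytes and neutrophils its medians were 1.90, 3.52 and 1.35 CPM. The source of the Epcam UMIs was not tested.

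Libraries differed in depth and in background. They held 21649947 to 158760328 UMIs, with a median per kept cell from 2291 in library 6 to 15081 in library 12, and 1.63% of barcode sequences occurred in more than 1 library. C1q, which lymphocytes and neutrophils do not make as far as is known, was used as a measure of macrophage RNA outside macrophages. C1qa, C1qb and C1qc together stood at a median of 14110.5 CPM in macrophages, at 407 CPM in T cells and at 827 CPM in neutrophils. Library 6 held the highest C1q level in every class but macrophages, with 2422 CPM in T cells and 4900 CPM in neutrophils. Monocytes and dendritic cells, gated on fewer than 3 C1q UMIs per cell, had 145 and 95.9 CPM. Library 4 stood apart in Ctsl in several classes, as described below.

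Promoter windows are shown for 4 members, because macrophage subsets, described further on, separated Ctsd, Ctsl and Lgmn, together with Ctsb, from Ctss. This choice came from these same data, so the matches shown do not bear on that grouping. RefSeq (GRCm38.p6) held windows of 250 bases before to 50 bases after a start for 6 of the 9 genes, 7 windows in all, and Lgmn had 2 of them. Ctsb, Ctsh and Ctsw had none. The Ctsc and Ctsz windows are not printed, and for Lgmn the window with CACGTG is. Both strands were searched for the E-box core CACGTG, which factors of the TFEB family and many others can bind, for the longer lysosomal CLEAR motif that contains it, and for GAGGAAG, a core that the myeloid factor PU.1 can bind. Capitals below mark CACGTG in the Ctsd, Ctsl and Lgmn windows and the reverse complement of GAGGAAG in the Ctss window. The windows are Ctsd on the minus strand at chr7:142387778-142388077, Ctsl on the minus strand at chr13:64370471-64370770, Lgmn on the minus strand at chr12:102439043-102439342 and Ctss on the plus strand at chr3:95526536-95526835.
Ctsd: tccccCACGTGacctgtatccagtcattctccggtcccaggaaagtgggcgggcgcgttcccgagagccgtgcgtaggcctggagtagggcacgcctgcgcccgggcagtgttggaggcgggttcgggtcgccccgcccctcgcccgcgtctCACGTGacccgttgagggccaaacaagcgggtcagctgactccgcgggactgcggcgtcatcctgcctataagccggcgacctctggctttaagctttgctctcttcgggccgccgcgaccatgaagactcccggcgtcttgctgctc
Ctsl: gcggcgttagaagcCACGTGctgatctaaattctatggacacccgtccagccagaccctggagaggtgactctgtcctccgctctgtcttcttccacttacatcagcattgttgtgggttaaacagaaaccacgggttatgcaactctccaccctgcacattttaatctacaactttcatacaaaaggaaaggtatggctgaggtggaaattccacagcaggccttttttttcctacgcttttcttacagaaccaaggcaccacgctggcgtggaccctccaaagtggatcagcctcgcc
Lgmn: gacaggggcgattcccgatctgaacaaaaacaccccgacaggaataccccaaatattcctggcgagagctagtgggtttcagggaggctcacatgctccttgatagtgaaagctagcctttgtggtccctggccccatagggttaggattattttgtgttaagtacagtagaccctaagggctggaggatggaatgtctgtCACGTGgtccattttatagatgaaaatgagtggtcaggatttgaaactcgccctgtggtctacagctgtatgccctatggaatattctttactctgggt
Ctss: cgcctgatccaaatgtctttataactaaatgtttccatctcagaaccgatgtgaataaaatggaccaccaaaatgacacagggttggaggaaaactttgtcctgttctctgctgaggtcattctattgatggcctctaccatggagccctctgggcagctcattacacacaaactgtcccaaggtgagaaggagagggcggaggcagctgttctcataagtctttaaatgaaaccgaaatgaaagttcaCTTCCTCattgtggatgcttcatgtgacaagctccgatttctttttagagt
CACGTG began at positions -245 and -98 from the start in Ctsd, at -236 in Ctsl and at -49 in Lgmn. The other Lgmn window, at chr12:102439679-102439978, held none of the motifs. It holds the 5′ end of the gene as annotated by GENCODE, whereas the Lgmn and Ctsl windows printed lie wholly inside the gene, their starts 721 and 370 bases past that end. The Ctsd start lies 211 bases inside its gene, so that the match at -98 is inside the gene and that at -245 is before it. The Ctss start is at the annotated 5′ end. Of all 32851 windows, 2349 (7.15%) held CACGTG, and 107 (0.326%) held the exact CLEAR form searched, among them none of a member. The Ctsd match at -98 reads ctCACGTGac, which differs from that form in its first letter only. GAGGAAG was found on the reverse strand at -1 in Ctss and at -197 and -150 in Ctsc, and in 4477 windows in all (13.6%). The Ctsz window held none of the 3 motifs. These matches describe letters, and no binding was measured.

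**Figure D1:**
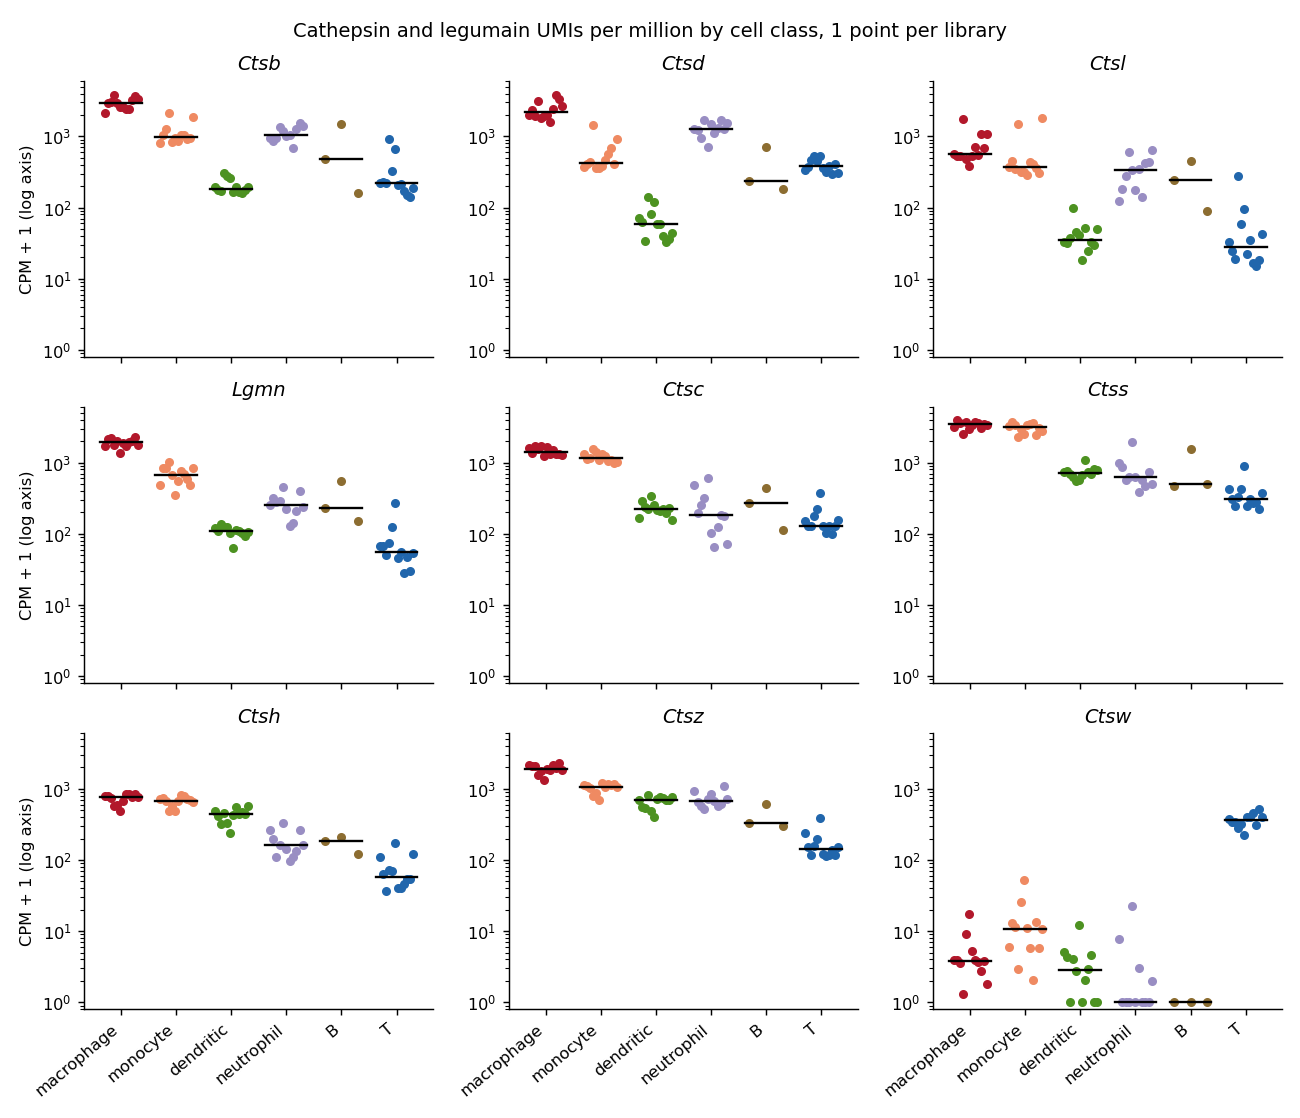
Level of each gene in 6 cell classes, as CPM + 1 on a log axis, with 1 point per library and a black line at the median. Macrophages have the highest median for every gene but Ctsw, which is high in T cells, and Ctsd is low in dendritic cells but not in neutrophils.

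Among the endopeptidases, Ctsb (ENSMUSG00000021939, chr14:63122462-63145923, plus strand, GRCm38) was highest in macrophages. Ctsb ranged from 2145 to 3866 CPM over the macrophages of 12 libraries (median 2951), from 816 to 2162 CPM in monocytes (median 989) and from 691 to 1545 CPM in neutrophils (median 1042). It ranged from 138 to 916 CPM in T cells (median 218) and from 158 to 302 CPM in dendritic cells (median 184), and the B cells of libraries 10, 5 and 6 had 161, 477 and 1517 CPM. Macrophages and monocytes overlapped at their edges across libraries, but within a library macrophages were higher in 12 of 12, by a median of 1.43 on the log2 scale (0.84 to 1.95). Monocytes and neutrophils could not be ordered for Ctsb, since monocytes were higher in 5 libraries and neutrophils in 6, nor could dendritic and T cells, with T cells higher in 9 of 12.

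Ctsd (ENSMUSG00000007891, chr7:142375911-142388038, minus strand), the aspartic protease, had another order of classes. Macrophages ranged from 1595 to 3803 CPM (median 2175) and neutrophils, next in order, from 698 to 1721 CPM (median 1288). Monocytes ranged from 357 to 1445 CPM (median 424), T cells from 294 to 535 CPM (median 382), and dendritic cells from 32.4 to 141 CPM (median 57.2). Macrophages were above neutrophils in 11 of 11 libraries, by a median of 0.89 on the log2 scale (0.42 to 1.48), and neutrophils above monocytes in 11 of 11 (monocyte minus neutrophil -1.27, range -1.96 to -0.25). Monocytes and T cells overlapped, with monocytes higher in 9 of 12 libraries, and T cells lay above dendritic cells in 12 of 12 (dendritic minus T -2.61, range -3.80 to -1.92). With T cells also held to fewer than 3 C1q UMIs, an alternative added after the data had been seen, the median difference was -2.63, again in 12 of 12. In the B cells of libraries 10, 5 and 6, Ctsd stood at 183, 232 and 710 CPM. Ctsd shares 6757 bases with Gm49369 on the same strand, which had 0 UMIs in the matrix, and how reads common to both were counted is not given in the sources used here.

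Ctsl (ENSMUSG00000021477, chr13:64359337-64370890, minus strand) varied widely over libraries. Macrophages ranged from 388 to 1775 CPM (median 556), monocytes from 288 to 1787 CPM (median 370) and neutrophils from 122 to 641 CPM (median 333). Dendritic cells ranged from 17.5 to 96.1 CPM (median 34.4) and T cells from 14.2 to 278 CPM (median 27.3). Macrophages were above monocytes in 11 of 12 libraries, monocytes above neutrophils in 8 of 11, and dendritic above T cells in 8 of 12, so that these neighbours were not separated in every library. The 3 libraries with B cells had 89.5, 244 and 452 CPM (libraries 10, 5 and 6), from 20, 20 and 28 UMIs. In those libraries Ctsl lay above T cells in 3 of 3 and, in the 30 B cells of library 6, above macrophages as well, where C1q stood at 4599 CPM. With B cells held to fewer than 3 C1q UMIs, 2 libraries reached 30 cells, and their median of Ctsl was 53.3 CPM, above T cells in 2 of 2 (1.37) and below macrophages in 2 of 2.

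Lgmn (ENSMUSG00000021190, chr12:102394084-102439813, minus strand) fell in steps from class to class. It ranged from 1381 to 2271 CPM in macrophages (median 1921), from 349 to 1021 CPM in monocytes (median 673), and from 127 to 451 CPM in neutrophils (median 251). It ranged from 62.7 to 138 CPM in dendritic cells (median 108) and from 27.1 to 267 CPM in T cells (median 53.9), and B cells of libraries 10, 5 and 6 had 152, 232 and 549 CPM. The lowest macrophage library was above the highest library of each other class. Neutrophils were above dendritic cells in 11 of 11 libraries, and dendritic cells above T cells in 10 of 12.

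Ctss (ENSMUSG00000038642, chr3:95526786-95556403, plus strand), which cuts the invariant chain, was about level in macrophages and monocytes. Macrophages ranged from 2493 to 3916 CPM (median 3463) and monocytes from 2300 to 3713 CPM (median 3161), and macrophages were higher in 10 of 12 libraries by a median of 0.11 on the log2 scale (-0.03 to 0.36). Dendritic cells ranged from 543 to 1078 CPM (median 714), neutrophils from 386 to 1923 CPM (median 631), and T cells from 220 to 899 CPM (median 307). The B cells of libraries 5, 10 and 6 had 464, 497 and 1533 CPM. Dendritic cells and neutrophils overlapped, with dendritic cells higher in 7 of 11 libraries. With neutrophils limited to fewer than 3 C1q UMIs, dendritic cells were higher in 10 of 10 (0.68), and with size factors in place of CPM in 5 of 11, so that their order depends on the setting.

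Among the exopeptidases, Ctsc (ENSMUSG00000030560, chr7:88278085-88310888, plus strand) was high in macrophages and monocytes and lower elsewhere. It ranged from 1249 to 1724 CPM in macrophages (median 1424) and from 975 to 1553 CPM in monocytes (median 1149), with macrophages higher in 11 of 12 libraries (median 0.28 on the log2 scale). Dendritic cells had 157 to 334 CPM (median 222), neutrophils 64.1 to 612 CPM (median 182) and T cells 99.3 to 369 CPM (median 128). Neutrophils thus overlapped both dendritic and T cells in Ctsc, being below dendritic cells in 7 of 11 libraries and above T cells in 7 of 11 (in 3 of 10 with fewer than 3 C1q UMIs in both). The B cells had 112, 269 and 436 CPM in libraries 10, 5 and 6.

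Ctsh (ENSMUSG00000032359, chr9:90054152-90076089, plus strand), an aminopeptidase, kept more of its level in dendritic cells. It ranged from 493 to 847 CPM in macrophages (median 772), from 486 to 812 CPM in monocytes (median 682) and from 242 to 569 CPM in dendritic cells (median 444). Neutrophils had 97.1 to 333 CPM (median 160), T cells 36.2 to 170 CPM (median 57.4), and B cells 121, 183 and 210 CPM in libraries 10, 5 and 6. Macrophages and monocytes differed by a median of 0.12 on the log2 scale (-0.02 to 0.30), whereas dendritic cells were above neutrophils in 10 of 11 libraries and neutrophils above T cells in 11 of 11.

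Ctsz (ENSMUSG00000016256, chr2:174427493-174439039, minus strand), a carboxypeptidase, ranged from 1340 to 2273 CPM in macrophages (median 1915) and from 699 to 1199 CPM in monocytes (median 1070), and these classes did not overlap. Dendritic cells had 402 to 819 CPM (median 696) and neutrophils 520 to 1103 CPM (median 663). Those classes could not be ordered, with dendritic cells higher in 5 of 11 libraries. T cells had 114 to 393 CPM (median 142), and the B cells of libraries 10, 5 and 6 had 295, 330 and 613 CPM.

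Ctsw (ENSMUSG00000024910, chr19:5465043-5468507, minus strand) was highest in T and NK cells in these libraries. T cells ranged from 222 to 521 CPM (median 362), and the NK cells of libraries 6 and 5 had 274 and 442 CPM, above the T cells of the same library in 2 of 2. Macrophages had 0.31 to 16.2 CPM (median 2.85), monocytes 1.06 to 51.5 CPM (median 9.83) and dendritic cells 0 to 11.3 CPM (median 1.87). No Ctsw UMI was found in the neutrophils of 7 of 11 libraries or among the 640547 UMIs of B cells. A limit of 3 UMIs over the B cells of all libraries (4.68 CPM) puts pooled T cells at least 75-fold higher. The highest values in macrophages, monocytes, dendritic cells and neutrophils all came from library 6, where Ctsw in T cells was lowest. When each cell was thinned to 1000 UMIs and libraries were pooled, 27.7% of T cells held a Ctsw UMI (exact Clopper-Pearson 95% interval 26.6 to 28.8%, counting error only), against 0.575% of macrophages (0.527 to 0.625%). The median over libraries was 29.3% in T cells (20.3 to 34.6%) and 0.209% in macrophages (0.0413 to 1.29%). Without thinning the pooled shares were 51.0% and 2.22%, at median depths of 2332 and 5692 UMIs. In NK cells the thinned share was 40.8% (34.0 to 47.8%), and in B cells it was 0 of 247 cells. That allows a share of B cells with a UMI at this depth of up to 1.48%, and sets no limit on the share that express the gene.

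**Figure D2:**
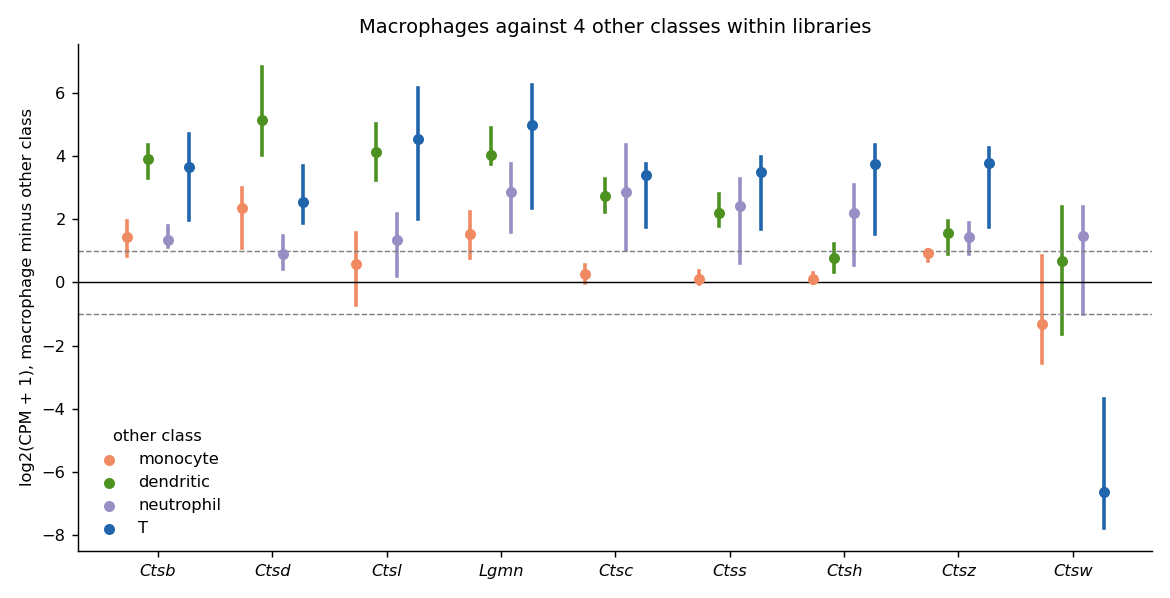
Difference in log2(CPM + 1) between macrophages and 4 other classes of the same library, with the median over libraries as a point and the lowest to highest library as a bar. Dashed lines mark 2-fold, and Ctsc, Ctss and Ctsh lie close to 0 against monocytes whereas Ctsd, Lgmn and Ctsb lie above 1.

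Macrophages were set against each other class within libraries over all genes, to read the members against the rest. A gene was counted where macrophages were higher in every library with a median log2 difference of at least 1, among genes with a mean of at least 10 CPM over both classes. Against monocytes this held for Ctsb, Ctsd and Lgmn, 3 of the 8 members that passed the filter (Ctsw did not), beside 5.22% of 7183 genes. The medians of log2 differences were 0.75 over those 8 members and 0.07 over all genes. Without regard to size, Ctsz joined them, so that 4 of 8 members were higher in macrophages in every library, beside 15.8% of all genes. Against dendritic cells 7 of 8 members were counted, all but Ctsh (0.77), beside 12.8% of 7384 genes, with a median of 3.32 over the members and 0.11 over all genes.

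Against T cells, 8 of 9 members were counted, beside 13.5% of 7750 genes, and Ctsw had a difference of -6.64. Ctsw passed the filter through its T cell level, so that its direction here was fixed by the filter and is given as a description. The log2 differences of the other 8 ran from 2.55 for Ctsd to 5.0 for Lgmn, with a median of 3.66 over all 9 and -0.06 over all genes. Against neutrophils 7 of 8 members were counted, all but Ctsd (0.89), beside 22.3% of 6946 genes. The median over all genes was 0.74 and that over the members 1.83. With library 6 left out, 3261 genes were past 2-fold either way in place of 2099, and the members counted depended on scaling. Of the genes past 2-fold either way, 73.8% were higher in macrophages with CPM and 60.5% with size factors, which shifted the macrophage to neutrophil differences by -0.42 on the log2 scale. With size factors Ctsc, Ctsh, Ctss and Lgmn stayed past 2-fold (4 members), Ctsb, Ctsl and Ctsz stood at 0.93, 0.84 and 0.97, and Ctsd was higher in macrophages in 9 of 11 libraries. With libraries 4 and 6 both left out, an alternative added after the data had been seen, the counts of members were again 3, 7, 7 and 8 against monocytes, dendritic cells, neutrophils and T cells.

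Macrophage RNA outside macrophages may be part of the low levels, and each member was therefore also taken per C1q UMI, relative to macrophages of the same library. A ratio near 1 is what a gene would show if it reached the class together with C1q alone. A ratio above 1 cannot tell expression in the class from RNA of cells with little C1q, such as monocytes (145 CPM). In T cells the median ratio was 5.08 for Ctsd (1.22 to 10.5), 3.01 for Ctss, 2.76 for Ctsc, 2.57 for Ctsz, 2.51 for Ctsh, 2.42 for Ctsb and 1.45 for Ctsl. It was 0.949 for Lgmn, with 5 of 12 libraries above 1. Of the 8 members higher in macrophages than in T cells, 5 (Ctsb, Ctsc, Ctsd, Ctsh and Ctss) had a ratio above 1 in every library, beside 54.8% of 1048 such genes, a share close to that of the members. The Lgmn level of T cells is thus not separated from the C1q background, and the Ctsl ratio fell to 0.452 in library 10. In neutrophils the median ratios were 8.16 for Ctsd, 7.12 for Ctsl, 5.38 for Ctsb, 4.74 for Ctsz, 2.94 for Ctsh, 2.71 for Ctss, 2.05 for Ctsc and 1.75 for Lgmn. Of the 7 members counted as higher in macrophages, Ctsb, Ctsh, Ctsl, Ctss and Ctsz were above 1 in every library (5 of 7), beside 28.2% of 1550 such genes. Ctsd was above 1 in 10 of 11 libraries, all but library 6 (0.804). In B cells, with 3 libraries, the median ratio was 4.16 for Ctsl and 1.08 for Lgmn, and the Ctsl level depended on the C1q limit as given above. Taken per UMI of Apoe, another macrophage gene, the median ratio was 2.17 for Ctsl in B cells, and in neutrophils 4.32 for Ctsl, 1.93 for Ctsh, 1.28 for Ctsc and 1.15 for Lgmn, so that these ratios depend on the gene they are set against.

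Shares of cells with a UMI, after thinning to 1000 UMIs and pooled over the cells of all libraries, gave further detail. Ctss was seen in 93.4% of macrophages, 91.1% of monocytes, 46.2% of dendritic cells, 45.7% of B cells, 33.9% of neutrophils and 28.5% of T cells. Ctsd was seen in 70.1% of macrophages, 66.5% of neutrophils, 34.0% of monocytes, 31.6% of T cells and 8.37% of dendritic cells. In the same order, its medians over libraries were 69.6, 66.7, 30.5, 30.5 and 3.88%, and dendritic cells ranged from 1.52 to 11.7%. Unthinned, the pooled Ctsd shares were 93.7, 77.2, 73.1, 57.1 and 27.6%. Thinning left out 591 macrophages, 861 neutrophils, 97 monocytes, 983 T cells and 70 dendritic cells that were shallower. Lgmn was seen in 77.5% of macrophages, 20.2% of B cells and 8.87% of T cells. Its median over libraries was 78.7% in macrophages and 5.18% in T cells (1.09 to 18.5%). In the 1 library usable for B cells after thinning it was 14.9%.

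Within macrophages, cells high and low for 4 gene sets were compared in each library, with cells chosen after thinning to 2000 UMIs and levels taken from all their UMIs. In macrophages high for MHC class II (H2-Aa, H2-Ab1 and H2-Eb1, at least 10 UMIs against at most 2), Ctsd stood at a median of 1491 CPM, against 4077 CPM in low ones. The log2 difference was -1.52 (-1.81 to -1.06). Ctsl (-0.97), Ctsb (-0.73) and Lgmn (-0.45) were lower in MHC-II high cells of all 12 libraries as well, so that 4 of 8 members passing the filter were lower in every library, beside 19.8% of all genes. Ctsh (0.29), Ctss (0.29) and Ctsz (0.09) were higher in 11 of 12 libraries, and Ctsc differed by -0.04. MHC-II high cells had a median depth of 5596 UMIs and low cells 8604.5 UMIs, and the part of depth in these differences was not tested.

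**Figure D3:**
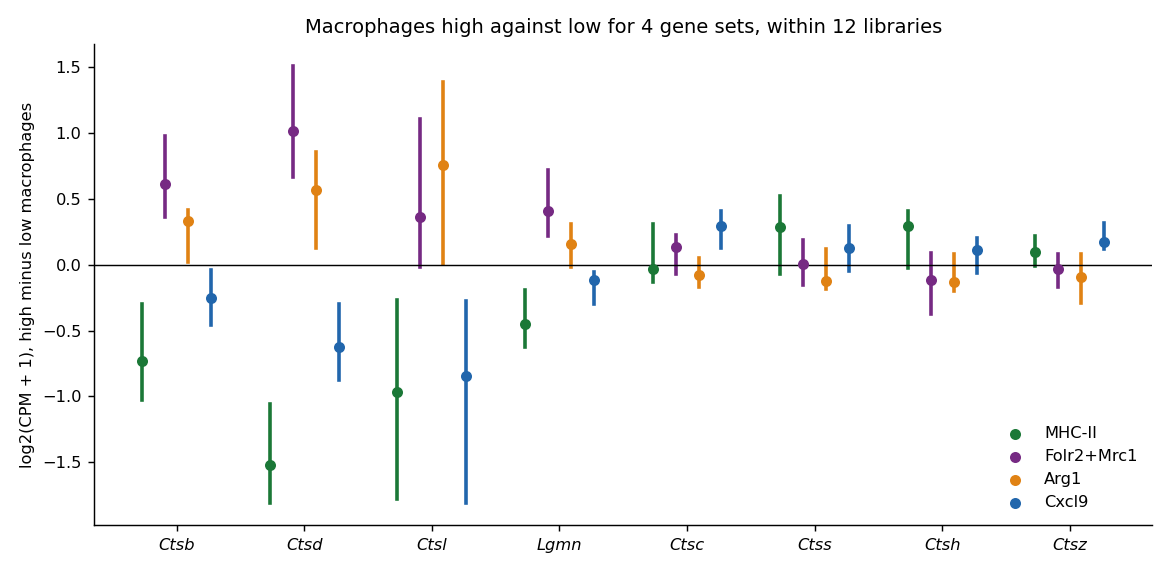
Difference in log2(CPM + 1) between macrophages high and low for 4 gene sets, for 8 members, with the median of 12 libraries as a point and the lowest to highest library as a bar. Ctsb, Ctsd, Ctsl and Lgmn move below 0 with MHC-II and Cxcl9 and above 0 with Folr2+Mrc1 and Arg1, in their medians, whereas the medians of Ctsc, Ctss, Ctsh and Ctsz stay between -0.13 and 0.29.

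The other gene sets were split after the same thinning, at least 2 UMIs against 0. Cells between were left out (21213 for Folr2 and Mrc1, 14625 for Arg1 and 9459 for Cxcl9). Folr2 and Mrc1, genes of tissue-resident and scavenging macrophages, were summed, so that a high cell may hold only 1 of them. In high cells Ctsd had a median of 3710 CPM against 1679 CPM in low ones (1.02, 0.67 to 1.51). Ctsb (0.61) and Lgmn (0.41) were also higher in all 12 libraries, making 3 of 8 members beside 17.8% of all genes, and Ctsl (0.36) and Ctsc (0.13) were each higher in 11 of 12. In macrophages with Arg1, which encodes arginase, Ctsl (0.76), Ctsd (0.56) and Ctsb (0.33) were higher in every library, 3 of 8 members beside 12.5% of all genes. Lgmn was higher in 11 of 12 (0.16). Ctsl stood at medians of 775 and 507 CPM there, and its smallest library difference was 0.0054. In macrophages with Cxcl9, a chemokine gene induced by interferon-gamma, Ctsl (-0.84), Ctsd (-0.63), Ctsb (-0.25) and Lgmn (-0.12) were lower in every library, 4 of 8 members beside 9.9% of all genes. Ctsc (0.29) and Ctsz (0.17) were higher in every library, 2 of 8 members beside 6.97% of all genes. Median depths were 6409 and 6537 UMIs for the Folr2 and Mrc1 split, 6775.5 and 6342 for Arg1, and 5753 and 6770 for Cxcl9. The 4 splits share cells and are not independent of each other.

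Over single macrophages of a library (84736 cells in 12 libraries, thinned to 2000 UMIs), pairs of these genes were correlated, as a description and without a test. Pearson's r was 0.56 between Ctsb and Ctsd as a median over libraries (0.45 to 0.61), 0.44 between Ctsb and Lgmn, 0.37 between Ctsd and Lgmn, and 0.27 for Ctsl with Ctsb and with Ctsd, but 0.14 between Ctsl and Lgmn. Pairs with the other members reached at most 0.19, between Ctsb and Ctsz. Next were 0.17 between Ctsb and Ctss, 0.15 between Ctsz and Lgmn and 0.14 between Ctsh and Ctss. These were near the value of Ctsl with Lgmn and below the other pairs among Ctsb, Ctsd, Ctsl and Lgmn. For Ctsc, r was -0.02 with Ctsb and -0.01 with Ctsd, and for Ctsh 0.05 with Ctsb and 0.0040 with Ctsd. The cells of a library share its preparation and their depth was fixed by thinning.

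Within T cells, CD8 and CD4 cells, told apart by their coreceptor UMIs, differed in 5 members in all 8 libraries that held at least 30 of each. Ctsw was higher in CD8 cells, with medians of 405 and 230 CPM and a log2 difference of 0.65 (0.19 to 1.47), as 1 of 9 members beside 4.39% of all genes. Ctsb, Ctsh, Ctss and Ctsz were lower in CD8 cells, 4 of 9 members beside 5.9% of all genes. Ctss stood at medians of 229 CPM in CD8 and 525 CPM in CD4 cells (-0.93), Ctsz at 102 and 276 CPM (-1.18), Ctsh at 34.1 and 104 CPM (-1.33) and Ctsb at 201 and 303 CPM (-0.76). Ctsd did not separate them (416 and 370 CPM, CD8 higher in 5 of 8). Ctsc and Lgmn were lower in CD8 cells in 7 of 8 libraries and Ctsl in 6 of 8. C1q levels are not given for CD8 and CD4 cells apart, and the part of macrophage RNA in these differences was not tested. In libraries 5 and 6, Ctsw was at a median of 358 CPM in NK cells and 304 CPM in CD8 T cells.

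**Figure D4:**
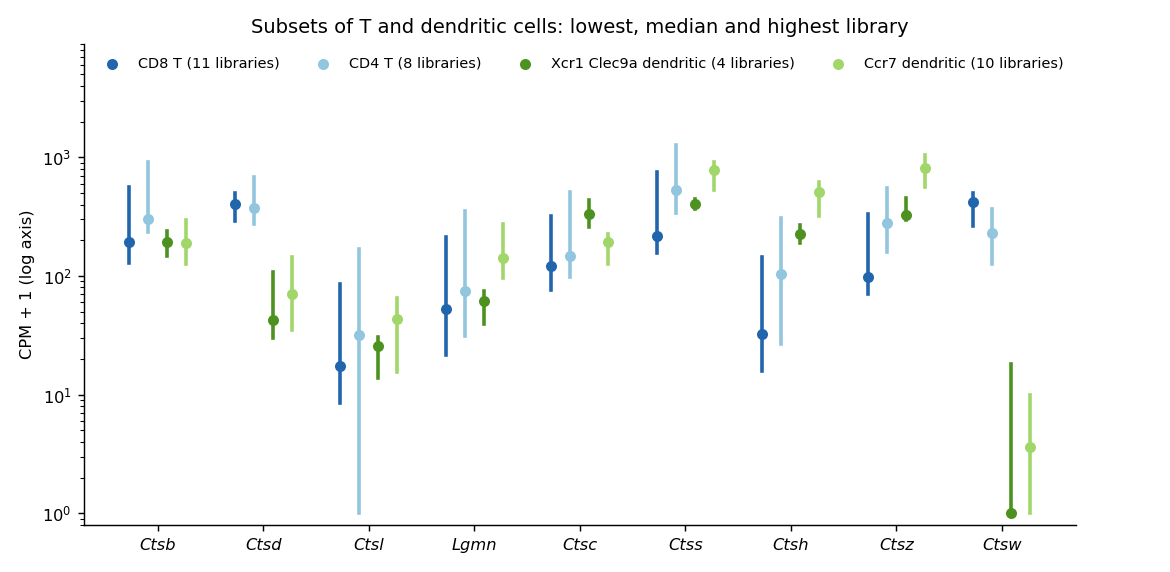
Level of each gene in subsets of T and dendritic cells, as CPM + 1 on a log axis, with the median library as a point and the lowest to highest library as a bar. Medians are over 11 libraries for CD8, 8 for CD4, 4 for Xcr1 or Clec9a and 10 for Ccr7 cells, and Ctsw is higher in CD8 than in CD4 T cells, while Ctsh, Ctss, Ctsz and Lgmn are higher in Ccr7 than in Xcr1 or Clec9a dendritic cells.

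Dendritic cells were divided into those with Xcr1 or Clec9a, markers of the cross-presenting type, and those with Ccr7, which mature dendritic cells carry. In the 4 libraries with at least 30 of each, Lgmn stood at medians of 60.1 and 146 CPM (-1.30), Ctsh at 223 and 466 CPM (-1.06), Ctsz at 323 and 685 CPM (-1.04) and Ctss at 403 and 773 CPM (-0.90). With Ctsd (-1.06) and Ctsl (-0.70), these were lower in Xcr1 or Clec9a cells in 4 of 4 libraries, 6 of 8 members beside 23.1% of all genes. Ctsc went the other way, at 330 and 204 CPM (0.76, 4 of 4), 1 of 8 members beside 28.5% of all genes. A further 138 cells with Cd209a did not reach 30 in any library and, pooled, had 1226 CPM of Ctss and 542 CPM of Ctsh. Among neutrophils, those with a Retnlg UMI had less Ctss than those without in 9 of 9 libraries (464 and 753 CPM, -0.88), 1 of 8 members beside 2.28% of all genes. Ctsc and Lgmn were lower in those with Retnlg in 8 and 7 of 9 libraries (-0.55 and -0.49), and Ctsl was higher in 6 of 9 (0.25). Ctsd did not separate these neutrophils (-0.01, higher in 4 of 9), and their median depths were 1651.5 and 1114 UMIs. Their C1q levels are not given apart, and the part of macrophage RNA in these differences was not tested. Over all neutrophils the Ctss median was 631 CPM in 11 libraries, and 431 CPM in 10 with fewer than 3 C1q UMIs.

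**Figure D5:**
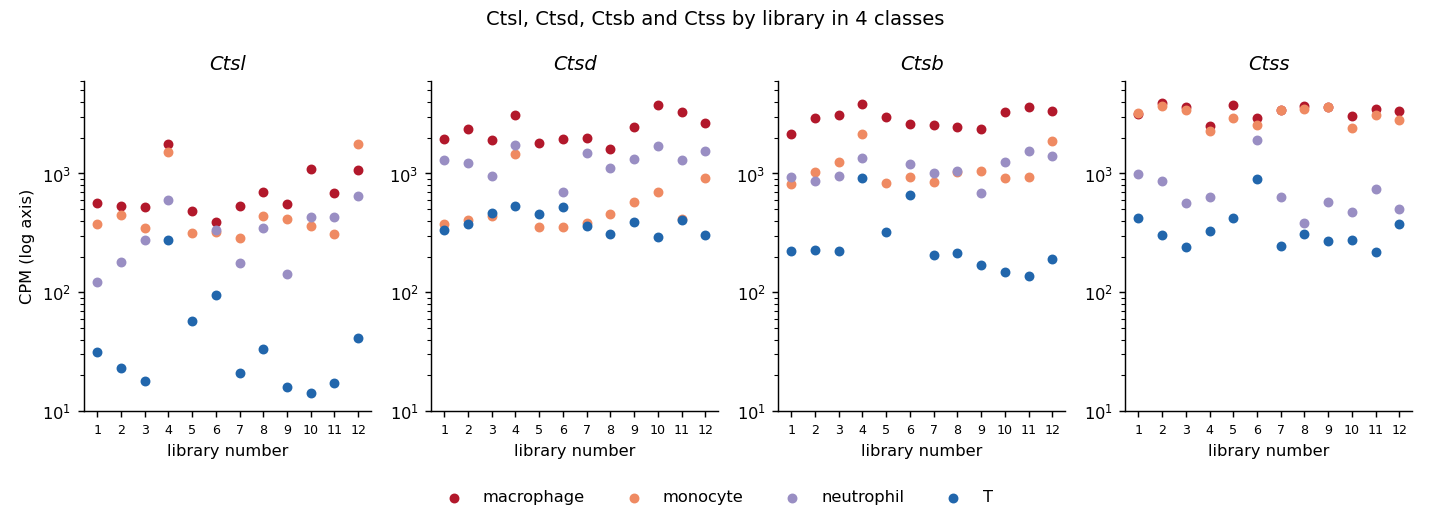
Level of Ctsl, Ctsd, Ctsb and Ctss in each of the 12 libraries for 4 classes, in CPM on a log axis, with no neutrophil point in library 5, which held too few. Library 4 is the highest for Ctsl in macrophages and T cells, and library 12 is the highest for Ctsl in monocytes and neutrophils.

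Across libraries, Ctsl had the widest range of the 8 members in macrophages. Its highest macrophage library exceeded its lowest by 4.57 times, a wider range than that of 97.8% of the 1413 genes with a median of at least 100 CPM, whose median range was 1.67 times. Without library 4 the range of Ctsl was 2.80 times. Ctsd had a range of 2.38 times, and for Ctsc it was 1.38 times, with a smaller or equal range in 16.4% of those genes. Library 4 held the highest macrophage level of Ctsl (1775 CPM, other libraries 388 to 1088) and of Ctsb (3866 CPM, others 2145 to 3641), 2 of the 8 members with at least 100 CPM, beside 14.3% of those 1413 genes. Its Ctss was the lowest in macrophages (2493 CPM, others 2936 to 3916) and in monocytes (2300 CPM, others 2402 to 3713). In the monocytes of library 4, Ctsd stood at 1445 CPM (others 357 to 912) and Ctsl at 1513 CPM, below library 12 at 1787 CPM. In its 47 T cells Ctsl stood at 278 CPM (others 14.2 to 94.9) and Ctsb at 916 CPM (others 138 to 659). The neutrophil markers S100a8 (669 CPM, next library 28.3) and S100a9 (535 CPM, next 42.9) were at their T cell highest there, as was the inhibitor gene Cstb (895 CPM, next 294). Il1r2, also a neutrophil marker, was instead highest in library 1 in T cells (138 CPM). In macrophages and monocytes Il1r2 was highest in libraries 8 and 10 (96.1 and 260 CPM). In macrophages of library 4, S100a8 stood at 422 CPM (median of all libraries 17.2), S100a9 at 533 CPM (median 22.5) and the hemoglobin gene Hbb-bs at 59.9 CPM (median 1.77), each the highest of the 12. Of the monocyte markers, Plac8 (900 CPM, next library 530) and Vcan (65.6 CPM, next 16.9) were also highest there, but Chil3 was highest in macrophages of library 12 (244 CPM). The monocytes of library 4 held the highest S100a8 (1517 CPM) and S100a9 (1757 CPM) and the lowest Chil3 (835 CPM). The part of these marker genes in the levels of Ctsl and Ctsb was not tested. The labels do not give the group of library 4, and with 1 library a treatment and a preparation cannot be told apart. The lowest macrophage levels of Ctsl were in libraries 6 and 5 (388 and 482 CPM). Library 6, the shallowest, held the highest T cell levels of Ctsc, Ctsh, Ctss, Ctsz and Lgmn, together with the highest C1q there. The part of C1q background in these levels was not tested.

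The other genes of the lysosomal pathway gave a frame for the members. A list of 40 such genes was set up, of which 39 were matched. Against T cells, 18 of the 29 that passed the filter were past 2-fold higher in macrophages in every library, beside 13.5% of all genes, and 4 were lower, beside 10.4%. A listed gene with a median under 10 CPM in the lower class passed the filter through the other class, so that its direction was fixed by the filter, and its values are given as a description. This holds for Gaa, Atp6v0d2 and Mitf among the 18 and for 3 of the 4 lower ones, and the shares over all genes contain such genes too. All 14 lysosomal membrane proteins, hydrolases and transporters matched were among the 18, with Grn, which encodes progranulin, at 4.14 and Lamp1, a lysosomal membrane protein, at 3.14. Of the 4, Serpinb9, which encodes a protease inhibitor, was above 10 CPM in both classes. Cst7 and Serpinb6b, which also encode inhibitors, and Igf2r, a receptor that sorts lysosomal enzymes, had medians of 7.04, 4.57 and 7.88 CPM in macrophages and passed through T cells. Against dendritic cells, 16 of 27 were higher, beside 12.8% of all genes, and 4 lower, beside 7.61%. Among the lower ones, Cst3, which encodes the inhibitor cystatin C, was at a median of 2817 CPM in macrophages and 21523.5 CPM in dendritic cells (-2.85), and Serpinb9 at 13.1 and 423 CPM (-4.83). Serpinb6b, at 4.57 and 543 CPM, passed through dendritic cells alone, as Atp6v0d2 and Mitf did through macrophages among the 16. Cd74, the invariant chain that Ctss cuts, was lower in macrophages than in dendritic cells in 12 of 12 libraries (6568 and 12500 CPM, -0.83).

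Against neutrophils, 12 of 30 listed genes were higher in macrophages, beside 22.3% of all genes, among them Ctso and Gaa, which passed through macrophages alone. Only 1 listed gene, Igf2r, was counted as lower, beside 7.90% of all genes. Igf2r had 8.02 CPM in macrophages and 58.3 CPM in neutrophils and passed through neutrophils alone. Among the cystatin family genes, Stfa2l1 had a median of 292 CPM in neutrophils and 0.147 CPM in macrophages, and was lower in macrophages in 10 of 11 libraries, a direction that the filter fixed. Cst3 went the other way, at 2748 CPM in macrophages and 1149 CPM in neutrophils (1.33, higher in 8 of 11). Cstb had 1337 and 681 CPM and was lower in macrophages in 11 of 11, by a median under 2-fold (-0.97). Against monocytes, none of 27 was lower at 2-fold, beside 2.91% of all genes. Of the 27, 6 were higher, beside 5.22% of all genes, among them Hexa (1.31), Grn (1.24) and Gaa (1.13). Atp6v0d2 (22.9 and 1.01 CPM) and Serpinb6a (71.4 and 9.92 CPM) were counted too but had passed through macrophages. The lysosomal regulators Tfeb and Tfe3 did not pass 2-fold against any of the 4 classes. Tfe3 was higher in macrophages in 12 of 12 libraries against dendritic cells and against T cells, by medians just under 2-fold (0.97 each). Against monocytes and neutrophils it was higher in 4 of 12 and 7 of 11. Mitf, at 25.3 CPM in macrophages, 3.80 CPM in dendritic cells and 1.75 CPM in T cells, was counted against the last 2 only after passing the filter through macrophages. Of the other cathepsins, Ctsa and Ctso passed the filter, and Ctse, Ctsf, Ctsg and Ctsk did not in any comparison.

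Genes whose levels followed each member most closely were found over the 62 pairs of class and library, with members and marker genes left out. Pearson's r of log2(CPM + 1) describes likeness here, since the pairs share libraries and the differences between classes dominate it. For Ctsb the nearest was Tpp1 (0.91), for Ctsd Timp2 (0.94), for Ctsl Cd93 (0.92), for Lgmn Lamp1 (0.95), for Ctsc and Ctss Ms4a6c (0.94 and 0.96), for Ctsh Pld4 (0.94), for Ctsz Lamp1 (0.93) and for Ctsw Gzmb (0.95). Among the members, Ctsb and Ctsl, and Ctsc and Ctss, were each alike at 0.94, whereas Ctsd and Ctsh had an r of 0.09.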

How the data were processed

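Single-cell RNA libraries of CD45+ cells were prepared with the 10X Genomics Single Cell 3' kit (v3). The deposited matrix holds UMI counts per gene and barcode, not normalized, made by the authors with Cell Ranger (3.0.2 in the matrix header, 2.1.1 in the submitters' processing notes) against mm10. The annotation is not given in the sources used here. Because UMIs count transcript ends and library numbers carry no label, levels are relative within a library and no comparison between groups and no p-value was computed.

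Of 140639 barcodes, 128912 were kept. They had a gene number above 200 and below 5000, and mitochondrial UMIs made up no more than 10%. No doublet caller was used, and 1160 cells that passed more than 1 gate were left out. Gates needed at least 2 lineage UMIs (3 of C1q for macrophages), with at most 1 phagocyte receptor UMI in lymphocytes, neutrophils and dendritic cells. UMIs were summed per class and library, scaled to CPM and compared within libraries as log2(CPM + 1), a scale that understates changes of low genes. Intervals cover counting error only. The step that counts genes past 2-fold was checked on simulated counts. Coordinates came from GENCODE M21 and promoters from RefSeq. All members were named, with related genes by list and the 3 most alike genes computed per member. The members and lists were chosen with earlier results of these data known. Some genes used in gates and lists are not reported here by name. Alternatives concerned gates, filters, scaling, thinning and libraries. Python 3.11.15, numpy 2.4.6, scipy 1.17.1 and pandas 2.3.3 were used.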

Additional observations from a re-analysis of the deposited data

How the results depend on the processing

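For 45 log2 differences between macrophages and the other classes, 10 planned and 2 added alternatives gave 576 values (leaving out 1 library gave a lowest and a highest value each, and a mitochondrial limit of 5% gave none for B cells), of which 554 moved by less than 1 SD over libraries, 22 moved further and 0 changed sign. The number of genes past 2-fold in every library, either way, rose against monocytes from 584 to 1054 without a filter on low values. Against neutrophils it was 2099 over 11 libraries. It became 3399 with 2 times the lineage minimum (9 libraries), 3337 with no phagocyte receptor UMI allowed (10) and 3407 with at least 100 cells (9). It was 3429 with the C1q limit (added, 10 libraries) and 3285 without libraries 4 and 6 (added, 9 libraries). These settings used fewer libraries than the 11 of the main count. With only library 4 left out (10 libraries), 1559 genes were higher and 566 lower in macrophages, beside 1550 and 549 with all 11. Leaving out 1 library at a time gave 2082 to 3261 genes, the highest without library 6. The causes were not tested. The members counted against neutrophils were 7 in these settings, 6 after thinning to 1000 UMIs and 4 with size factors, and against the other classes they were 3, 7 and 8 in each setting. No pairing of samples over treatment groups was possible because the libraries carry no replicate number of a group. Classes were compared within each library. Depth limits B cells (335 cells) and the Ctsw level outside T and NK cells.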
